A study of Mus musculus with 12 samples.

Results

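Mice heterozygous for a Cas9 deletion in Gmppb were compared with wild-type (WT) mice by RNA sequencing of gastrocnemius, the large calf muscle. The comparison took 6 of the 12 libraries of the series, 3 from mice carrying the deletion (KO) and 3 from WT mice, as their labels name them. It was made over the 9152 of 30488 gene symbols whose mean over the 12 libraries was at least 1 TPM (a level in which reads are taken per base of transcript and each library is brought to a common sum). Only 1 gene of the 9152 passed the test, Cyp26b1, the gene of a cytochrome P450 that degrades retinoic acid.

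Gmppb encodes the catalytic subunit of GDP-mannose pyrophosphorylase, which joins mannose 1-phosphate and GTP into GDP-mannose. GDP-mannose feeds N-glycans, GPI anchors and the O-mannosyl glycan of alpha-dystroglycan, the sugar chain through which muscle fibres hold laminin in the surrounding basal lamina. In people, variants in both copies of GMPPB cause muscular dystrophies and a congenital myasthenic syndrome. The series asks what GMPPB does for muscle, and this comparison asks how muscle RNA differs when 1 allele is deleted in part.

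All mice were 32 weeks old and on a standard diet, and 100 mg of muscle was taken from each under anesthesia. KO mice carried 1 deleted Gmppb allele, described in the labels as lacking exons 2 and 3, a loss of 303 bp. The other groups were 3 mice heterozygous for P32L, a change of base 95 that alters residue 32, and 3 mice homozygous for R287Q, a change of base 860 that alters residue 287. They are used here only to show where KO muscle stood apart from them. The labels give no sex, litter, founder line, feeding state, hour of collection or batch. Nothing in them says that the edit was limited to muscle. Separate mice are named, so the spread given here is between animals.

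The edited stretch is shown first because the label of the KO mice rests on it. In transcript Gmppb-202 of GENCODE M21 (mm10, plus strand), which has 9 exons and 360 codons, exon 2 lies at chr9:108049761-108049841 and exon 3 at chr9:108049929-108049977. Both are wholly coding. Exon 2 holds 81 bases, or 27 codons, and exon 3 holds 49 bases, or 16 codons and 1 further base, printed in capitals.
Gmppb exon 2: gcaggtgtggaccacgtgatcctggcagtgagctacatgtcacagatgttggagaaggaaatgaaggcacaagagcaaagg
Gmppb exon 3: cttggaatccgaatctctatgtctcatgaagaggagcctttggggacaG
The exons hold 130 bases in all, which are 12% of the coding sequence and 4.81% of the 2702 bases of the transcript. They span 217 bases with the intron between them, and 469 bases separate exon 1 from exon 4, so a deletion of 303 bp can hold both exons in this numbering. In transcript Gmppb-201 the exons numbered 2 and 3 span 330 bases, so 1 deletion of 303 bp is too short to hold both in that numbering. The labels do not name the transcript. With exon 1 joined to exon 4 in the reference sequence of Gmppb-202, the 1 extra base shifts the reading frame, and the first stop codon comes after 67 codons, 43 from exon 1 and 24 behind the junction. This is a reading of the reference, since no library gives reads by exon.

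Gmppb itself (chromosome 9, 108049242 to 108052801) was at 4.42, 3.02 and 3.61 TPM in WT replicates 1 to 3 and at 3.37, 3.62 and 3.33 TPM in KO replicates 1 to 3. All 3 KO mice lay inside the WT range. The difference of mean log2(TPM + 1) was -0.07 (95% interval -0.33 to 0.19, limma adjusted p = 0.956), and an exact two-sided permutation test gave p = 0.8, where 0.1 is the smallest p that 3 against 3 mice can give. A gene-level TPM adds up all exons, so it does not show the deleted stretch apart and does not check the label of these mice. The annotated end of Gmppb is shared with Rnf123, on the opposite strand, and Gm20529, and a kit that does not mark strand cannot divide reads there.

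Across all genes, KO and WT muscle differed little. The median of the log2 differences was 0.0063, and the differences ran from -0.22 at the 5th percentile to 0.34 at the 95th percentile. The difference was under 0.25 in size for 88.0% of genes and under 0.5 for 96.7%. It reached 1 or more for 55 genes, 41 of them higher in KO and 14 lower. The median distance from an estimate to the end of its 95% interval was 0.24, so differences of that order could not be told from the spread between mice for a typical gene. That interval is for 1 gene without adjustment. A call adjusted over all genes asks for a difference larger against its spread.

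By limma with Benjamini-Hochberg adjustment over the 9152 genes, 1 gene (0.0109%) passed at an adjusted p under 0.05, and the second lowest adjusted p was 0.209. At an unadjusted p under 0.05 there were 545 genes (5.95%), 336 higher (3.67%) and 209 lower (2.28%). KO and WT mice did not overlap for 720 genes (7.87%), 402 of them higher in KO (4.39%) and 318 lower (3.47%). Every count of gene group members below is read against these shares, or against those of the same setting. The shares themselves moved with the scaling. As deposited 52.1% of all genes lay above WT, 49.3% after median-of-ratios scaling, 43.6% after quantile normalization and 36.9% with mitochondrial transcripts left out. In the same order 5.95%, 9.95%, 10.2% and 11.4% had an unadjusted p under 0.05. With 1 mouse left out, 40.9% (without WT replicate 3) to 66.1% (without WT replicate 1) lay above WT. At such a p were then 4.48% (without KO replicate 3) to 9.39% (without KO replicate 1).

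**Figure D1:**
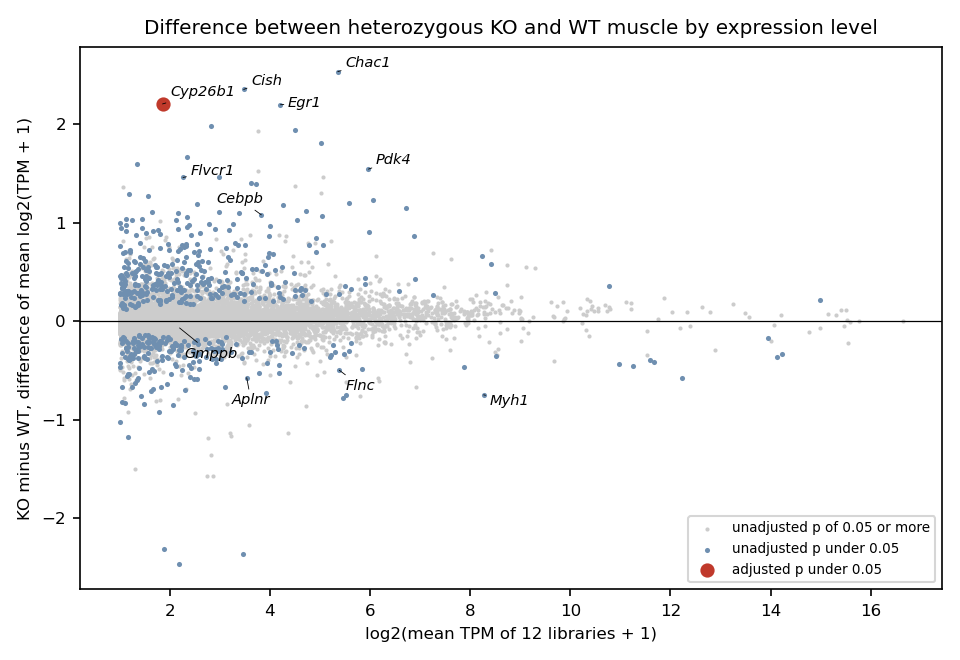
Difference of mean log2(TPM + 1) between KO and WT (vertical axis) against the log2 of the mean TPM over 12 libraries plus 1 (horizontal axis), each point 1 of 9152 genes. Cyp26b1 is the 1 gene past the adjusted threshold, at 2.20, and most points lie near 0. Blue points have an unadjusted p under 0.05.

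Libraries of the same group were alike and so were those of different groups. Profiles correlated at 0.987 to 0.990 between KO mice, at 0.984 to 0.986 between WT mice and at 0.977 to 0.990 between KO and WT mice, over genes, which are not independent replicates. Mitochondrially encoded transcripts took 53.0% to 58.4% of each library and 7 nuclear copies of them another 19.6% to 21.0%, so all other genes share the rest. Skeletal muscle fibre markers such as Acta1, Ckm and Mylpf summed to between 39266 and 52563 TPM in KO and between 35961 and 46818 TPM in WT, so the defining markers of the labelled tissue were abundant. Sequencing depth cannot be read from TPM, so the counting error of each value is not known here.

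Retinoic acid, made from vitamin A, binds the receptors RAR and RXR, and enzymes of the CYP26 family break it down. Cyp26b1 (chromosome 6, 84571414 to 84593908, minus strand, mm10) was at 0.776, 1.03 and 0.906 TPM in WT mice and at 6.36, 5.65 and 12.7 TPM in KO mice. The lowest KO mouse was well above the highest WT mouse, and KO replicate 3 stood highest. Cyp26b1 rose by 2.20 on the log2(TPM + 1) scale (SE 0.24, 95% interval 1.68 to 2.73, limma adjusted p = 0.0133), from 0.903 ± 0.124 to 8.24 ± 3.88 TPM (SD, n = 3 in each group). Cyp26b1 reached the mean of 1 TPM needed to be tested only through the KO mice, with a mean of 2.62 TPM over all 12 and group means below 1 TPM in the other 3 groups. The added pseudocount of 1 understates the change of a gene that was below 1 TPM in WT: with a pseudocount of 0.1 the difference was 2.97. It no longer passed without WT replicate 1 (adjusted p = 0.130), without WT replicate 3 (0.105), in a fit of the 6 KO and WT libraries alone (0.246) and with a pseudocount of 0.01 (0.0504), while the difference stayed between 1.88 and 2.40 when any single mouse was left out.

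Cyp26b1 also set KO muscle apart from both missense lines. These comparisons use no WT library, but they use the same 3 KO mice through which the gene entered the test. They are therefore not separate support. It was at 1.31, 0.906 and 0.435 TPM in P32L mice and at 0.444, 0.532 and 0.412 TPM in R287Q mice. The 3 KO mice were therefore the highest 3 of the 12. The difference was 2.24 from P32L (adjusted p = 0.00556) and 2.58 from R287Q (adjusted p = 0.00269), by the same limma fit. In a limma fit of the 2 groups alone it no longer passed against P32L and still passed against R287Q (adjusted p = 0.0142).

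The bases ahead of the transcription start of Cyp26b1 are shown because it is the gene the comparison turns on. RefSeq's promoter table (GRCm38.p6) gives 300 bases around its start. The 152 bases of them that lie upstream of the GENCODE start at 84593908 are chr6:84593909-84594060, read on the minus strand, with a TATA box motif in capitals.
Cyp26b1 upstream: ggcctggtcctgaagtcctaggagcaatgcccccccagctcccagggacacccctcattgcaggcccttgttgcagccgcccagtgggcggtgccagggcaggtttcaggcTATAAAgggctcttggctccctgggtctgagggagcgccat
The TATAAA begins 41 bases before that start, and 13.6% of the 32851 promoters in the table hold TATAAA on either strand. The half-sites AGGTCA and AGTTCA, letters to which retinoic acid receptors are known to bind in pairs, were searched on both strands of the same 300 bases and had no match. They occur in 16.3% and 14% of all promoters. A match or its absence in this window says nothing of what binds there.

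The rest of the retinoic acid pathway gave little. Of 37 listed genes, 34 were in the table and 14 reached the mean of 1 TPM. Of the 14, 11 lay above WT and 3 below, with a median of 0.09, and Cyp26b1, which entered the test through the KO mice, was the 1 member at an unadjusted p under 0.05. The median ran from 0.050 without WT replicate 3 to 0.15 without KO replicate 1, where 4 members had such a p. The other enzymes of breakdown were nearly silent: Cyp26a1 was at 0.205 TPM or less and Cyp26c1 at 0.022 TPM or less in the 6 mice. Dhrs3, which turns retinal back into retinol, was at 1.76, 1.4 and 1.59 TPM in WT and 1.69, 1.89 and 2.82 TPM in KO, overlapping (0.27, adjusted p = 0.864). Aldh1a1, which oxidises retinal to retinoic acid, differed by -0.16 (adjusted p = 0.873). Among the receptors Rarg differed by 0.20 (adjusted p = 0.873) and Rxrb by 0.10 (adjusted p = 0.946).

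After Cyp26b1, the named genes with the lowest p on the higher side did not pass. These genes, and the leading genes of the next paragraphs on both sides, were picked among genes without overlap between KO and WT. That separation was therefore set by the choice, and 7.87% of all genes share it. Flvcr1, a membrane protein that carries heme and choline, was at 1.17, 2.65 and 2.04 TPM in WT and at 5.64, 8.25 and 7.14 TPM in KO. Every KO mouse exceeded every WT mouse, and the difference was 1.46 (SE 0.29, adjusted p = 0.366). Cebpb, a transcription factor of inflammatory and fat cell programs, was at 10.1, 8.05 and 6.04 TPM in WT and at 12.2, 20.4 and 22.5 TPM in KO. These groups did not overlap either, though KO replicate 1 was close to WT replicate 1 (1.08, SE 0.22, adjusted p = 0.366). Sat1, which acetylates spermidine and spermine for breakdown or export, was at 18.8, 16.8 and 15.3 TPM in WT and at 21.3, 25.2 and 26.3 TPM in KO (0.49, SE 0.10, adjusted p = 0.366). Sat1 passed after quantile normalization (0.44, adjusted p = 0.0479). Ear2, a ribonuclease of eosinophils, followed at 1.09 (adjusted p = 0.366).

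Chac1, which degrades glutathione and is a target of the stress factor ATF4, had the largest log2 difference of all tested genes. It was at 5.35, 23.5 and 11.7 TPM in WT and at 61.4, 95.8 and 62.2 TPM in KO. The WT mice were spread widely, but all 3 lay far below KO (2.53, SE 0.55, adjusted p = 0.421). Cish, a feedback inhibitor of cytokine receptors that STAT5 induces, was at 0.676, 4.49 and 3.97 TPM in WT and at 16.2, 27.9 and 11.2 TPM in KO. By the same choice no mouse crossed over (2.35, SE 0.62, adjusted p = 0.514). Pdk4, a kinase that turns muscle from glucose to fat, was at 17.0, 32.0 and 24.2 TPM in WT and at 39.8, 75.9 and 117 TPM in KO (1.54, SE 0.44, adjusted p = 0.546). Nrarp, a feedback inhibitor of Notch, differed by 0.87 (adjusted p = 0.421) and Ccl6, a chemokine of myeloid cells, by 1.4 (adjusted p = 0.583). Ccl27a, a chemokine gene, was tight within groups, at 2.46 to 2.54 TPM in WT and 3.45 to 3.54 TPM in KO, which is a small difference of 0.36 (adjusted p = 0.421).

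**Figure D2:**
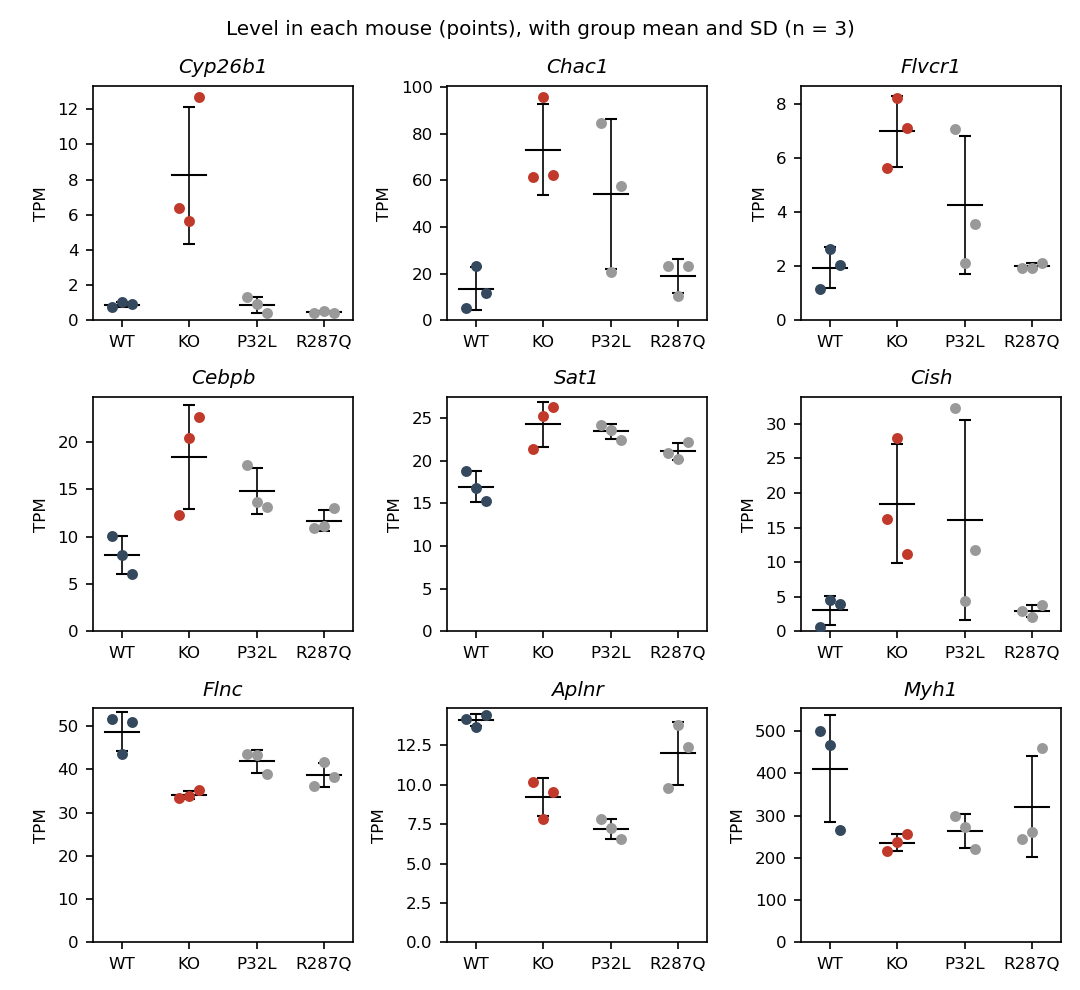
Level in TPM (vertical axis, from 0) of 9 genes in each of the 12 mice, by group, with the mean and SD of 3 mice. Cyp26b1 is at 5.65 TPM or more in KO and at 1.31 TPM or less in every other mouse, while Chac1, Flvcr1 and Cish in P32L mice spread across the KO and WT levels.

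On the lower side the lowest p among named genes belonged to Fam217b, a gene of little known function (-0.38, SE 0.06, adjusted p = 0.209). It was at 1.68, 1.49 and 1.68 TPM in WT and at 0.943, 1.08 and 1.01 TPM in KO, and it passed after quantile normalization (-0.39, adjusted p = 0.0211). Flnc, filamin C, which cross-links actin at the Z-disc and the fibre membrane, was at 51.7, 43.5 and 50.9 TPM in WT and at 33.4, 33.8 and 35.2 TPM in KO. The KO mice were close to each other and below all WT mice (-0.50, SE 0.09, adjusted p = 0.317). The receptor gene Aplnr, through which apelin acts on endothelial cells, was at 14.2, 13.7 and 14.4 TPM in WT and at 10.2, 7.85 and 9.54 TPM in KO. Its groups were apart, as the choice of genes required (-0.57, SE 0.12, adjusted p = 0.421). Myh1, the heavy chain of fast 2X fibres, was at 500, 467 and 265 TPM in WT and at 215, 236 and 256 TPM in KO. WT replicate 3 was near the KO mice (-0.75, SE 0.27, adjusted p = 0.669). Smtnl2, a smoothelin-like protein of muscle, differed by -0.30 (adjusted p = 0.550).

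The group of genes furthest above WT was that of macrophage and monocyte markers. Of 17 markers 13 were tested, all 13 lay above WT with a median of 0.73, and 10 had an unadjusted p under 0.05, where 3.67% of all genes did so on that side. None passed over all genes (limma). All lists here, this one and those below included, were chosen with earlier results of these data known. Their counts beside the shares of all genes are therefore a description and no independent test. In bulk muscle, more or fewer cells of a type and more or less RNA per cell cannot be told apart. Mpeg1, a pore-forming protein of phagocytes, was at 5.75, 2.56 and 5.08 TPM in WT and at 7.57, 12.6 and 7.77 TPM in KO (0.93, adjusted p = 0.456). Cd14, a co-receptor for lipopolysaccharide, was at 5.88, 3.42 and 5.6 TPM in WT and at 7.13, 11.1 and 8.29 TPM in KO (0.73, adjusted p = 0.456). The groups stood apart for both genes, with WT replicate 2 lowest and KO replicate 2 highest. The complement genes C1qa (1.03) and C1qb (1.10), the lysozyme gene Lyz2 (0.91) and the lysosomal membrane gene Cd68 (0.99) overlapped between groups, since WT replicate 1 reached KO levels. Summed over the list, WT mice had 172, 53.8 and 124 TPM and KO mice 159, 268 and 205 TPM. With 1 mouse left out the median ran from 0.48 (without WT replicate 2, 3 members at an unadjusted p under 0.05) to 0.97 (without WT replicate 1, 12 members). Without KO replicate 2 these were 0.58 and 4.

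Other immune lists followed it in part. Of the granule genes of eosinophils and mast cells 4 of 12 were tested. In all 4 the KO mice lay above WT without overlap, as for 4.39% of all genes. These were Ear2 at 1.09 and the mast cell proteases Cma1 at 0.73, Mcpt4 at 0.71 and Tpsb2 at 0.67, the lowest adjusted p being 0.366. Ear2 belongs to a family of near-identical ribonuclease genes, so reads may be split between copies, and the mast cell proteases have close relatives too. Ear2 was at 2.23, 0.835 and 2.25 TPM in WT and at 4.35, 4.84 and 5.0 TPM in KO. Granule genes of neutrophils had 4 members tested, 3 above WT and 1 below, with 0 at an unadjusted p under 0.05. The 8 granulocyte genes together gave 3 at such a p, a count that was 1 without WT replicate 2 or without KO replicate 2 and 4 without WT replicate 3. No lymphocyte marker of 10 reached a mean of 1 TPM. Cd4 and Cd8a were at 0.064 TPM or less in each of the 6 mice. Interferon-induced and antigen presentation genes lay above WT for 17 of 17 tested, with a median of 0.23, and 3 had an unadjusted p under 0.05. These were the immunoproteasome subunits Psmb9 (0.31, adjusted p = 0.621) and Psmb8 (0.32, adjusted p = 0.675) and the ubiquitin-like Isg15 (0.60, adjusted p = 0.752). Without WT replicate 2 that list had 11 members above WT, 6 below and 0 at an unadjusted p under 0.05, while without WT replicate 1 or KO replicate 1 it had 7 at such a p.

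Immediate-early genes, which nerve activity, stretch, stress and tissue handling switch on within minutes, were above WT for 23 of 23 tested members, with a median of 0.55 and 12 at an unadjusted p under 0.05. It was 22 of 23 under quantile normalization and 23 of 24 with mitochondrial transcripts left out. None passed over all genes. Fos was at 11, 7.43 and 4.25 TPM in WT and at 17.2, 64.4 and 24.1 TPM in KO (1.94, SE 0.53, adjusted p = 0.546). Egr1 was at 11.6, 5.12 and 4.29 TPM in WT and at 29.0, 71.2 and 17.2 TPM in KO (2.20, SE 0.65, adjusted p = 0.550). In both genes KO replicate 2 was far above the other KO and WT mice, and in both the groups stayed apart. Junb differed by 1.39, Ier2 by 1.18 and Nr4a2 by 0.77. The median of the list ran from 0.35 without KO replicate 2, with 9 members at an unadjusted p under 0.05, to 0.80 without KO replicate 1, with 19. The hour of death and the handling of each muscle are not in the labels, and their part in the result was not tested.

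Targets of cytokines and the C/EBP factors were above WT for 12 of 16 tested, with a median of 0.64. At an unadjusted p under 0.05 were 6 members above WT and 1 below. Leaving out 1 mouse gave medians of 0.45 to 0.87 and 5 to 8 such members above WT. With mitochondrial transcripts left out more members reached the level for testing, and 12 of 21 lay above WT with a median of 0.31. Socs3, which dampens signalling through STAT3, was at 2.31, 2.29 and 3.19 TPM in WT and at 4.50, 8.19 and 4.79 TPM in KO (0.89, adjusted p = 0.550). Ccl2, which draws monocytes, was at 1.56, 0.375 and 1.05 TPM in WT and at 2.05, 4.19 and 1.94 TPM in KO (0.90, adjusted p = 0.546). Both were apart between groups, and Cish and Cebpb above belong to the same list. Cebpd differed by 0.77 (adjusted p = 0.621) and Socs1 by 0.98 (adjusted p = 0.746). The 1 below WT was Ddit3, a C/EBP-like factor of stress, at 8.95, 6.01 and 6.01 TPM in WT and 4.68, 4.89 and 5.96 TPM in KO (-0.36, adjusted p = 0.825).

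**Figure D3:**
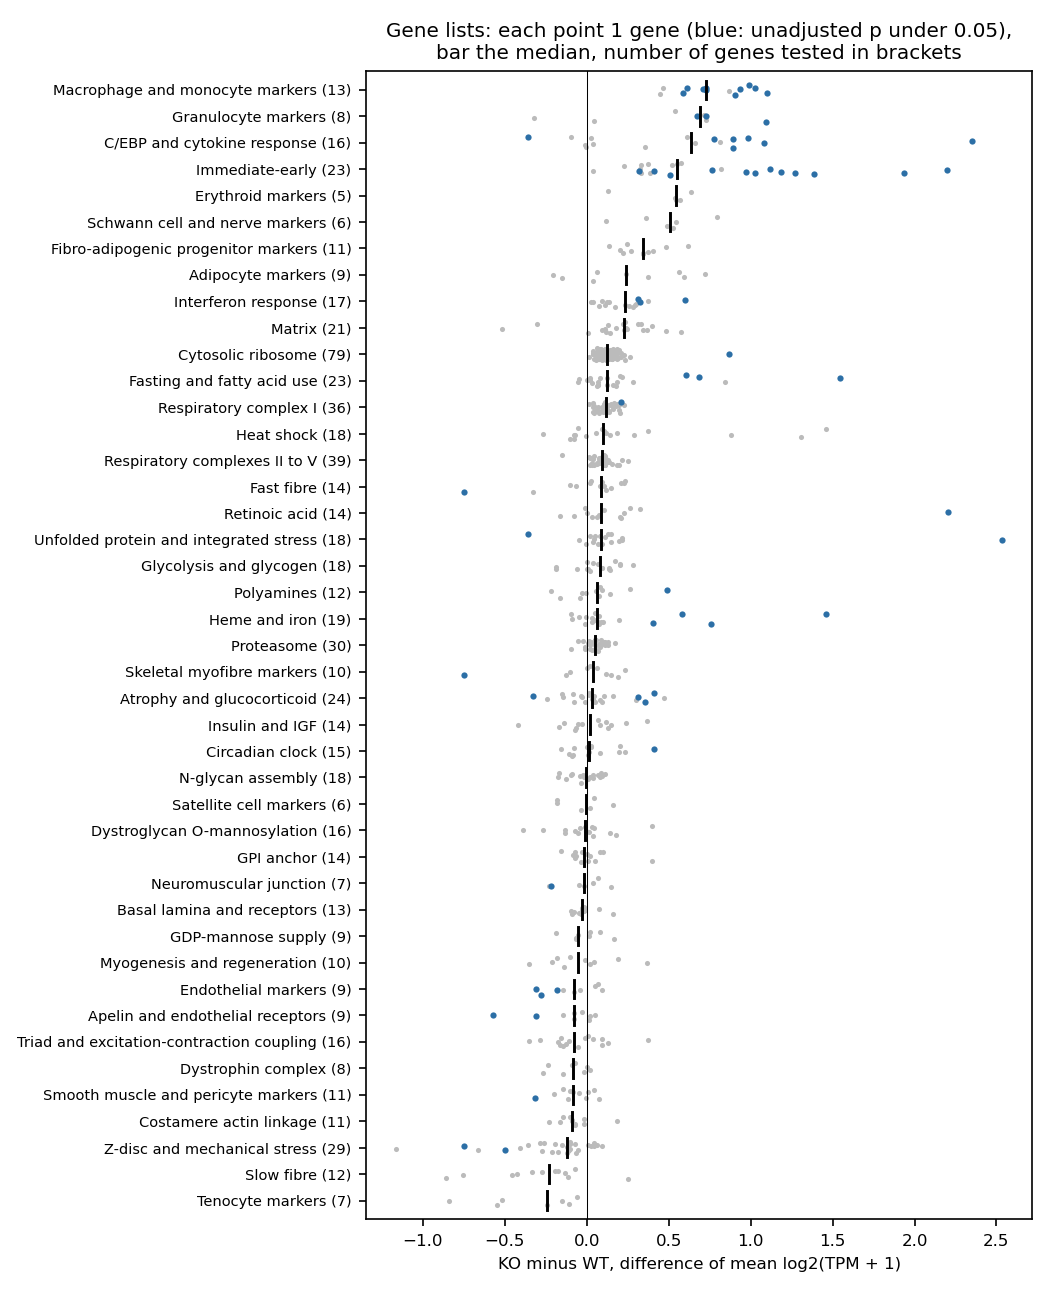
Difference of mean log2(TPM + 1) between KO and WT (horizontal axis) for every tested member of each list with 5 or more tested genes, with the list's median as a bar and members at an unadjusted p under 0.05 in blue. Macrophage and monocyte markers have the highest median, 0.73, and tenocyte markers the lowest, -0.24.

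Ddit3 and Chac1 also belong to the unfolded protein and integrated stress response, and lay on opposite sides of WT. Of 18 tested members of that list 15 lay above WT, with a median of 0.09, and these were the 2 with an unadjusted p under 0.05. Without WT replicate 2 there were 10 above WT with a median of 0.031, and without WT replicate 1 there were 17 with a median of 0.20 and 5 at such a p. Atf4, the factor known to induce Chac1, was at 180, 165 and 153 TPM in WT and 169, 182 and 192 TPM in KO, which overlap (0.13, adjusted p = 0.903). Hspa5, the chaperone BiP, differed by 0.11 (adjusted p = 0.951). Heat shock genes were above WT for 11 of 18, with a median of 0.098 and 0 at an unadjusted p under 0.05. That list was as unsteady, with 9 of 18 above WT without WT replicate 2 (median -0.021), 16 without WT replicate 1 (0.25, 4 at such a p) and 15 without KO replicate 1 (0.21, 5 at such a p). Hspa1b, which shares most of its sequence with Hspa1a and so cannot be counted apart from it with certainty, was at 27.5, 4.39 and 12.4 TPM in WT and at 11, 82.7 and 42.0 TPM in KO, so the groups overlapped widely (1.46, adjusted p = 0.849).

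Genes of heme and iron handling gave 4 members at an unadjusted p under 0.05 of 19 tested, all 4 above WT, while the median of the list was 0.063, or 0.0086 without WT replicate 3 and 0.17 without WT replicate 1. Flvcr1 led them. Hmox1, heme oxygenase 1, was at 3.90, 1.32 and 2.52 TPM in WT and at 4.70, 4.84 and 4.86 TPM in KO (0.76, adjusted p = 0.583). Slc40a1, the iron exporter ferroportin, was at 5.24, 3.86 and 4.75 TPM in WT and at 5.47, 8.07 and 5.88 TPM in KO (0.40, adjusted p = 0.606). Both groups were apart in each of these genes, by a small margin for Slc40a1. The ferritin light chain gene Ftl1 differed by 0.58 (adjusted p = 0.586) and overlapped, as did the heavy chain gene Fth1 at 0.19 (adjusted p = 0.857). Heme oxygenase 1 and ferroportin are also made by macrophages, whose markers lay above WT in the same mice. Their part in these values was not tested. Of the 8 tested genes of heme synthesis 0 had an unadjusted p under 0.05. Haemoglobin and other erythroid markers were above WT for 5 of 5 tested, with a median of 0.55 and 0 at an unadjusted p under 0.05. Their summed level was 2533, 1001 and 1323 TPM in WT and 1794, 2067 and 2888 TPM in KO. The median was 0.27 without WT replicate 2 and 0.93 without WT replicate 1, where 4 of 5 had an unadjusted p under 0.05.

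Genes of fasting and fat use lay above WT for 21 of 23 tested, with a median of 0.12, for 10 of 23 without KO replicate 3 and for 23 of 23 without KO replicate 1. Besides Pdk4, the uncoupling protein genes Ucp3 (0.69, adjusted p = 0.583) and Ucp2 (0.61, adjusted p = 0.669) had an unadjusted p under 0.05. Among genes of muscle wasting, 15 of 24 lay above WT, with a median of 0.035. The median was -0.012 under quantile normalization, where that of all genes was -0.018. With mitochondrial transcripts left out it was -0.039 over the 29 members then tested, where that of all genes was -0.050. With 1 mouse left out it ran from -0.028 without WT replicate 3 to 0.11 without WT replicate 1. Trim63, a ubiquitin ligase that marks sarcomere proteins for breakdown, was at 39.6, 33.5 and 34.6 TPM in WT and at 45.5, 48.7 and 44.4 TPM in KO (0.36, adjusted p = 0.445). Fbxo32, the other ligase that rises in wasting muscle, was at 23.7, 22.4 and 19.2 TPM in WT and at 27.3, 29.1 and 25.2 TPM in KO (0.31, adjusted p = 0.731). Mstn, myostatin, a brake on muscle growth, was at 50.8, 46.3 and 52.6 TPM in WT and at 41.4, 40.8 and 36.4 TPM in KO (-0.33, adjusted p = 0.695). In all 3 genes KO and WT mice did not overlap, as for 7.87% of all genes, and the differences were small.

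Of the mitochondrial and ribosomal lists, complex I lay above WT for 36 of 36 nuclear-encoded subunits (median 0.12) and complexes II to V for 38 of 39 (median 0.09). Cytosolic ribosomal protein genes did so for 79 of 79 (median 0.12), of which Rps27a alone had an unadjusted p under 0.05 (0.87, adjusted p = 0.621). Ribosomal protein genes have many pseudogene copies that can share their reads. With mitochondrial transcripts left out, where the median of all genes was -0.050 and 36.9% of them lay above WT, the medians were 0.048 for complex I, 0.025 for complexes II to V and 0.054 for the ribosome, and 28 of 36, 28 of 39 and 64 of 79 members lay above WT. Without WT replicate 3 complex I was above WT for 21 of 36 and complexes II to V for 19 of 39, while without KO replicate 1 their medians were 0.22 and 0.19.

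**Figure D4:**
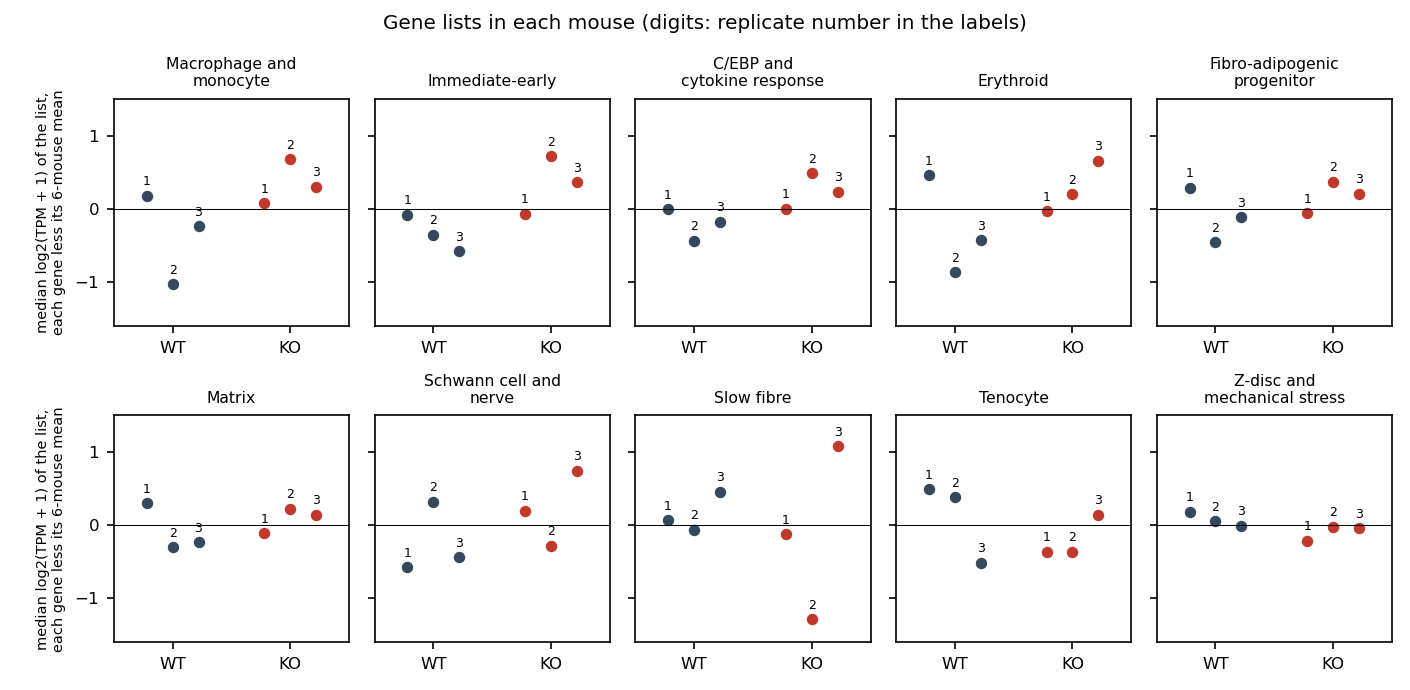
Median over the members of 10 lists of log2(TPM + 1), each gene less its mean over the 6 mice (vertical axis), in every WT and KO mouse, with replicate numbers beside the points. WT replicate 2 is lowest for macrophage, erythroid and fibro-adipogenic genes, KO replicate 2 is highest for macrophage and immediate-early genes, and KO replicates 2 and 3 lie at opposite ends for slow fibre genes.

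Below WT, genes of the Z-disc and of mechanical stress were led by Flnc. Of 29 tested, 23 lay below WT with a median of -0.12, and 2 had an unadjusted p under 0.05, where 2.28% of all genes did on that side. Leaving out 1 mouse gave medians of -0.20 (without KO replicate 2) to -0.069 (without KO replicate 1, 19 below). It gave up to 5 at such a p (without KO replicate 3, where 4.48% of all genes had one on either side). Quantile normalization gave 7, where 10.2% of all genes had one on either side. The second was Fhl1, a LIM protein of the sarcomere that responds to stretch, at 62.2, 54.4 and 63.5 TPM in WT and at 27.5, 27 and 58.3 TPM in KO (-0.75, adjusted p = 0.821). KO replicate 3 lay inside the WT range for Fhl1. Csrp3, another LIM protein, was at 7.83, 10.3 and 14.1 TPM in WT and at 2.79, 2.55 and 8.97 TPM in KO (-1.16, adjusted p = 0.857), and Hspb7, a small heat shock protein that binds filamin C, was at 136, 137 and 168 TPM in WT and at 74.7, 62.9 and 164 TPM in KO (-0.66, adjusted p = 0.897). In each of them KO replicate 3 was the KO mouse near WT. The costamere genes that tie actin to the membrane lay below WT for 10 of 11, with a median of -0.09 and 0 at an unadjusted p under 0.05, for 7 of 11 without WT replicate 1 and for 11 of 11 without WT replicate 2.

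Slow fibre transcripts varied widely within groups. Slow fibre genes summed to 188, 173 and 273 TPM in WT and to 175, 56.8 and 459 TPM in KO. Of 12 tested 11 lay below WT with a median of -0.23, and the median was 0.32 without KO replicate 2 and -0.71 without KO replicate 3. Myh7, the slow myosin heavy chain, was at 26.0, 18.6 and 38.7 TPM in WT and at 20.4, 2.02 and 53.5 TPM in KO. Of 14 fast fibre genes Myh1 was the 1 member at an unadjusted p under 0.05. Mylpf, the fast regulatory light chain, was at 3608, 3744 and 3051 TPM in WT and at 3806, 4438 and 3954 TPM in KO, apart by a small margin (0.23, adjusted p = 0.834).

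Markers of cells other than muscle fibres and leukocytes varied by mouse. Endothelial markers lay above WT for 3 and below for 6 of 9 tested, and 3 had an unadjusted p under 0.05: Kdr, a VEGF receptor (-0.31, adjusted p = 0.678), the junction cadherin Cdh5 (-0.28, adjusted p = 0.722) and the lectin Clec14a (-0.18, adjusted p = 0.787). All 3 KO mice were below all 3 WT mice in each of these genes, as for 3.47% of all genes. The summed level of the list overlapped, at 66.7, 51.3 and 51.7 TPM in WT and 46.2, 52.8 and 61.0 TPM in KO. Without WT replicate 1, where 66.1% of all genes lay above WT, the list turned to 6 above and 3 below. It had 0 at an unadjusted p under 0.05 there and without KO replicate 1. Without WT replicate 3 or KO replicate 3 it was below for 9 of 9, where 40.9% and 51.3% of all genes lay above WT. Aplnr lies in the same cells, and the part of endothelial content in its value was not tested. Fibro-adipogenic progenitor markers were above WT for 11 of 11, with a median of 0.34, and matrix genes such as the collagen gene Col3a1 (0.58, adjusted p = 0.852) for 19 of 21, with a median of 0.23. Both lists had 0 members at an unadjusted p under 0.05, and without WT replicate 2 their medians were 0.15 and 0.063. Without WT replicate 1 the medians were 0.48 and 0.37, with 5 of 11 and 8 of 21 at such a p. Schwann cell markers were above WT for 6 of 6 with a median of 0.51. Their summed level was 22.4, 59.5 and 25.4 TPM in WT and 56.1, 31.9 and 87.1 TPM in KO, which overlap. Tenocyte markers were below WT for 7 of 7 with a median of -0.24, and 0 of either list had an unadjusted p under 0.05. Without WT replicate 2, the WT mouse with the highest Schwann cell sum, or without KO replicate 2, 5 of 6 Schwann cell markers had one, and without WT replicate 3, the WT mouse with the lowest tenocyte sum, 3 of 7 tenocyte markers had one.

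None of the genes nearest to Gmppb in function passed the test. Of 14 genes of GDP-mannose supply 9 were tested, 4 above WT and 5 below, with a median of -0.052 (-0.096 to 0.052 with 1 mouse left out) and 0 at an unadjusted p under 0.05. Gmppa, the regulatory partner of the Gmppb protein, was at 7.79, 7.71 and 6.82 TPM in WT and at 6.69, 7.61 and 6.93 TPM in KO (-0.06, adjusted p = 0.956). Pmm1, a phosphomannomutase, differed by 0.17 (adjusted p = 0.852) and Hk2, a hexokinase, by -0.19 (adjusted p = 0.898). Of 24 genes for dystroglycan and its O-mannosyl glycan 16 were tested, 7 above WT and 9 below, with a median of -0.0091 (-0.097 to 0.038 with 1 mouse left out) and 0 at an unadjusted p under 0.05. Dag1, which encodes dystroglycan, was at 13.9, 11 and 10.2 TPM in WT and at 9.44, 10.5 and 8.5 TPM in KO, overlapping by KO replicate 2 alone (-0.27, adjusted p = 0.852). Dpm1, a subunit of dolichol-phosphate mannose synthase, differed by 0.40 (adjusted p = 0.898). B4gat1, which primes the laminin-binding sugar chain, was at 28.1, 16.6 and 11.4 TPM in WT and at 10.2, 13.5 and 16.5 TPM in KO (-0.39, adjusted p = 0.909), and its interval is the widest of these genes.

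**Figure D5:**
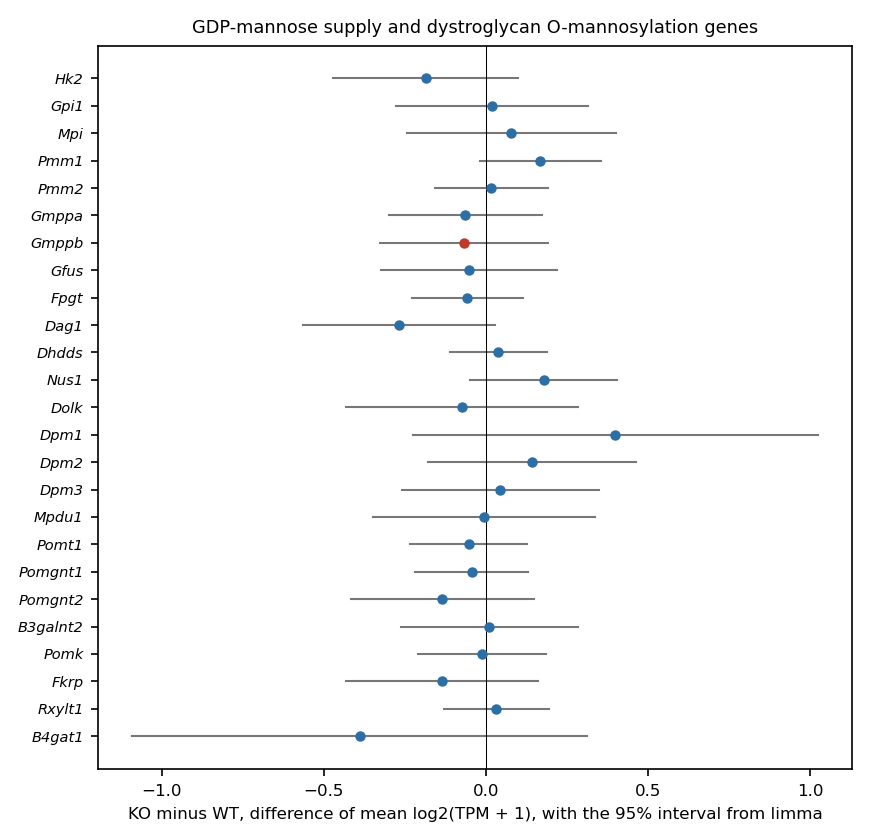
Difference of mean log2(TPM + 1) between KO and WT with its 95% interval from limma (horizontal axis) for the tested genes of GDP-mannose supply and dystroglycan O-mannosylation, Gmppb in red. Every interval includes 0, and Gmppb lies at -0.07.

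Pathways that use GDP-mannose further on had no called gene either. Genes of N-glycan assembly were 9 above WT and 9 below of 18 tested, and GPI anchor genes 6 above and 8 below of 14, each with 0 at an unadjusted p under 0.05. The dystrophin complex was below WT for 7 of 8 tested, with a median of -0.08 and 0 at an unadjusted p under 0.05. Its largest difference was that of Nos1, neuronal nitric oxide synthase, at 1.74, 1.66 and 1.34 TPM in WT and 1.25, 1.29 and 0.901 TPM in KO (-0.27, adjusted p = 0.852). Without WT replicate 1, where 66.1% of all genes lay above WT, that list had 5 members above WT and 3 below. Without WT replicate 3, where 40.9% of all genes did, it was below WT for 8 of 8 with a median of -0.23. It then had 3 at an unadjusted p under 0.05, where 6.05% of all genes had one. Median-of-ratios scaling and quantile normalization each gave 2 at such a p, where 9.95% and 10.2% of all genes had one. Leaving out mitochondrial transcripts gave 3 of 11 then tested, where 11.4% of all genes had one. At the neuromuscular junction, where people with GMPPB variants can show faulty transmission, 3 of 7 tested genes were above WT and 4 below. These were 5 and 2 without WT replicate 1 and 0 and 7 without WT replicate 3, with 66.1% and 40.9% of all genes above WT. Dok7, which activates the receptor kinase MuSK, was the 1 with an unadjusted p under 0.05, at 1.38, 1.20 and 1.14 TPM in WT and at 0.904, 0.976 and 0.897 TPM in KO (-0.22, adjusted p = 0.752). Chrnb1, a subunit of the acetylcholine receptor, was also apart between groups (-0.23, adjusted p = 0.852).

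Adipocyte markers were above WT for 7 of 9 tested with a median of 0.24 and 0 at an unadjusted p under 0.05, and the median ran from -0.045 without WT replicate 1 to 0.82 without WT replicate 3. Their summed level was 573, 1237 and 1588 TPM in WT and 743, 1062 and 1664 TPM in KO. The other lists had smaller medians. They were 0.08 for glycolysis and glycogen, 0.05 for the proteasome, 0.02 for insulin and IGF signalling and 0.01 for the circadian clock, which under quantile normalization, where the median of all genes was -0.018, became -0.011, 0.0052, -0.0016 and -0.035. Medians were -0.03 for basal lamina proteins and their receptors, -0.05 for myogenesis and regeneration and -0.08 for the triad that couples excitation to contraction. In these 7 lists 1 gene had an unadjusted p under 0.05, the clock repressor Per1 (0.41, adjusted p = 0.825). Smooth muscle and pericyte markers had a median of -0.09, with Rgs5, a pericyte regulator of G proteins, at 48.2, 39.9 and 40.9 TPM in WT and at 34.7, 30.8 and 37.7 TPM in KO (-0.31, adjusted p = 0.675).

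Set directly against the missense lines, KO muscle differed in few genes. Limma called 2 genes (0.0219%) between KO and P32L, both heterozygous, and 4 (0.0437%) between KO and R287Q. Besides Cyp26b1 these were processed pseudogenes and an unclassified transcript. Several genes that led KO against WT were spread widely in P32L. Chac1 was at 84.6, 20.6 and 57.6 TPM there and differed from KO by 0.61 (adjusted p = 0.830). In R287Q mice Chac1 was at 23.2, 10.6 and 23.2 TPM, below every KO mouse, and the difference was 1.94 (adjusted p = 0.350). Flvcr1 was at 7.11, 2.14 and 3.57 TPM in P32L (0.70, adjusted p = 0.588) and at 1.95, 1.92 and 2.14 TPM in R287Q (1.4, adjusted p = 0.156). Flnc was at 43.5, 43.3 and 38.9 TPM in P32L (-0.29, adjusted p = 0.488) and at 36.1, 41.7 and 38.3 TPM in R287Q (-0.17, adjusted p = 0.693), above all 3 KO mice in both lines. Aplnr was at 7.81, 7.24 and 6.53 TPM in P32L (0.31, adjusted p = 0.560), with every P32L mouse below every KO mouse.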

How the data were processed

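RNA from gastrocnemius of 12 mice was sequenced from NEBNext Ultra libraries made with 2 µg of RNA each, per the labels' protocols. The authors deposited 1 table of log2 values per gene symbol. FastQC, HISAT2, StringTie and DESeq2 with build mm10 are named per the submitters' processing notes, while their versions, the annotation and what the word adj in the table's name stands for are not given there. Raised from the log2 scale and less 1, each library summed to between 997591 and 998739, so the values were read as log2(TPM + 1). Library depth is unknown.

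The genes that averaged at least 1 TPM were fitted with limma 3.58.1 (R 4.3.3) on 4 group means with an intensity trend (8 residual and 3.11 prior degrees of freedom), with two-sided p adjusted by Benjamini-Hochberg over 9152 genes. The test was run on simulated data with independent normal noise for each gene and the same spread in every group. That setting does not check genes that vary together between mice or groups of unequal spread. Symbols were placed by GENCODE M21, which matched 97.4% of the tested genes. Exons came from GENCODE M21 and promoters from RefSeq.

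The 45 gene lists (879 genes) were written from textbook knowledge. The members and the lists were chosen with earlier results of these data known. Lists are described by counts and medians only. Named genes were Gmppb, called genes, the 12 higher and 12 lower genes with the smallest p and the 8 higher and 8 lower with the largest difference at a mean of at least 5 TPM, all without overlap between groups and without predicted models, and leading members of lists. The text shows part of them. Genes called between KO and the missense lines, and the immunoglobulin genes, are named outside that rule. Alternatives were other pseudocounts, filters, variance models and scalings, a replicate block and leaving out each mouse.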

Additional observations from a re-analysis of the deposited data

Results flagged for a closer look

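KO muscle differed from a missense line, by direct limma contrasts of the groups, for 5 genes. These contrasts compare groups of mice whose litter, founder line and batch are not given, and R287Q mice are homozygous. Cyp26b1 was higher in KO than in P32L by 2.24 (adjusted p = 0.00556) and than in R287Q by 2.58 (adjusted p = 0.00269). It reached the level needed for testing only through these same KO mice, so the contrasts are not separate support for the comparison with WT. In a limma fit of KO and P32L alone it no longer passed. Rpl26-ps6, a processed pseudogene of a ribosomal protein gene, was lower in KO than in P32L by -1.39 on the log2(TPM + 1) scale (adjusted p = 0.00556), with 0.394, 0.634 and 0.995 TPM in KO against 4.24, 2.74 and 3.17 TPM in P32L. Its level in WT was 0.780, 0.918 and 0.795 TPM, near that in KO, so of these groups P32L was the one that lay apart. No KO or WT mouse reached 1 TPM, the mean over 12 libraries that a gene needed to be tested. The pseudogenes Gm7846 (0.84, adjusted p = 0.0105) and Gm10269 (0.63, adjusted p = 0.0264) were higher in KO than in R287Q, and Gm43980, a transcript to be experimentally verified in the annotation, was lower (-0.69, adjusted p = 0.0431). A processed pseudogene can share reads with its parent gene, and the values of these 3 pseudogenes are uncertain for that reason. Gm7846, Gm10269 and Gm43980 were no longer called after median-of-ratios scaling, after quantile normalization or with the replicate block.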

How the results depend on the processing

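The count of genes called between KO and WT, 1 as reported, was 0 with a pseudocount of 0.01 (Cyp26b1 at 3.09), 0 at a mean of at least 5 TPM, which leaves Cyp26b1 out, 0 in a fit of the 2 groups alone (Cyp26b1 at 2.20), 3 after quantile normalization, 4 with mitochondrial transcripts left out and 20 without a filter. Leaving out each mouse gave 0 to 2 calls, with Cyp26b1 at 1.88 to 2.40 and Gmppb at -0.17 to 0.043, which turned its sign without WT replicate 1. It was 2 without WT replicate 2, where Gm42417 was added. The counts for KO with P32L, 2 as reported, were 21 without a filter, 0 at 5 TPM, 0 in the fit of 2 groups and 9 without mitochondrial transcripts. Those for KO with R287Q, 4 as reported, were 43, 2, 4 and 7 in the same order, 1 after median-of-ratios scaling, 1 after quantile normalization and 1 to 5 when a mouse was left out. The causes were not tested. The labels do not say whether replicate numbers pair the mice. Deviations of same-numbered KO and WT mice correlated at -0.33, -0.29 and -0.07. Differently numbered mice ran from 0.0090 (KO replicate 2 with WT replicate 3) to 0.28 (KO replicate 2 with WT replicate 1). Such values cannot show which mice were handled together. With the replicate block limma called 0 genes in KO with WT (Cyp26b1 at 2.20, adjusted p = 0.0847), 2 in KO with P32L and 1 in KO with R287Q. Among named genes, leaving out a mouse turned the sign of Myh7 (-1.78 to 0.31, the latter without KO replicate 2).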
